A study of Mus musculus with 21 samples.

Results

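The cGAS-STING pathway detects double-stranded DNA in the cytosol, and 8 of its genes were followed here through 7 mouse glioma stem-like cell lines. They were taken by symbol from the 54532 genes of the deposited table: the sensor Mb21d1 (the older symbol of Cgas), the adaptor Tmem173 (the older symbol of Sting1), the kinases Tbk1 and Ikbke, the transcription factor Irf3, and Enpp1, Samhd1 and Ddx41, which act on the messenger molecule, on nucleotides and on nucleic acid. Their level was measured by mRNA sequencing in 21 libraries as FPKM, which divides the fragments of a gene by its length and by the depth of the library, so that levels can be set side by side between genes. The series asks how much Cgas the gliomas with and without an IDH1 mutation express.

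The IDH1 mutant group held 4 lines, PIC144-1, PIC144-3, PIC496-3 and PIC496-4, and the IDH1 WT group held 3 lines, PC134-0, PC308-1 and PC326-1. All came from the brains of genetically engineered mouse glioma models and grew as floating cultures in neural stem cell medium with EGF, bFGF, heparin, penicillin/streptomycin, amphotericin B and Plasmocin at 5% oxygen. No line received a treatment, and the labels name no other allele and no age. Each line has 3 libraries called biological replicates, with 15011668 to 21966351 fragments in genes per library. Because a genotype is carried by a whole line, each line counted once, at the mean of its 3 libraries (n = 4 and n = 3). Lines named with the same number may share an animal, on which the labels are silent.

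When cGAS binds DNA it makes cyclic GMP-AMP (cGAMP), which binds STING on the endoplasmic reticulum. STING then moves to the Golgi and recruits TBK1, which phosphorylates IRF3, and IRF3 enters the nucleus and induces type I interferon and a set of antiviral and chemokine genes. IKKε, the product of Ikbke, is a kinase related to TBK1 that can act beside it. ENPP1 breaks down cGAMP outside the cell, SAMHD1 removes deoxynucleotides and limits the release of DNA from stalled replication forks, and DDX41 is an RNA helicase that has also been described as a DNA sensor.

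Of the markers of glioma stem-like cells, 10 of 10 fixed markers, among them Sox2, Olig2 and Nes, were at 0.5 FPKM or more in at least 1 line. Prom1 was below this in PIC144-1, at 0.0948 FPKM, and in PIC496-3, at 0.147 FPKM. The other markers reached it in every line. The summed level of the 10 markers was 1165 to 2244 FPKM in IDH1 mutant lines and 1405 to 1797 FPKM in IDH1 WT lines. Lymphocyte markers summed to at most 0.0461 FPKM in any line, and Tyrobp of microglia was at 0. Of 5 endothelial markers Cldn5 was at 0 and 1 reached 0.5 FPKM, Kdr, at 0.628 FPKM in PC134-0 and 0.728 FPKM in PC326-1, and the list summed to 0.0802 to 0.369 FPKM in mutant lines and 0.335 to 0.844 FPKM in WT lines. Of 10 microglia and macrophage markers 2 reached 0.5 FPKM in a line, and the list summed to 0.877 to 2.57 FPKM in mutant lines and 1.07 to 6.49 FPKM in WT lines. The highest sum was that of PC134-0, to which Cd68, a lysosomal protein of macrophages, gave 5.05 FPKM. The other marker to reach 0.5 FPKM was P2ry12, a purine receptor of microglia, at 1.36 FPKM in PC134-0, and it lay at 0.0230 to 0.160 FPKM in mutant lines and 0.226 to 1.36 FPKM in WT lines, with no overlap. Tmem119 of the same list went the other way without overlap, at 0.0244 to 0.131 FPKM in mutant lines and at most 0.0163 FPKM in WT lines. Neither gene was tested, and 13.3% of all tested genes did not overlap. Ptprc, which marks all white blood cells, was at most 0.0158 FPKM in every line. Fibroblast and pericyte markers summed to 1.11 to 15.3 FPKM in mutant lines and 0.462 to 1.58 FPKM in WT lines, with Dcn at 10.4 FPKM in PIC144-1. In 1 line a library stood apart from the others of its line, replicate 2 of PIC496-4, and results that turn on it are given without it as well.

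The genes differ in the sequence just before their start. RefSeq (GRCm38.p6) gives the 250 bases before the start of 7 of the 8 genes. Those of Mb21d1 and Tbk1 are printed because these genes varied most and least over the lines. Capitals mark CpG, the dinucleotide that can carry DNA methylation, and both sequences read 5′ to 3′ on the minus strand, Mb21d1 at chr9:78443238-78443487 and Tbk1 at chr10:121586795-121587044.
Mb21d1: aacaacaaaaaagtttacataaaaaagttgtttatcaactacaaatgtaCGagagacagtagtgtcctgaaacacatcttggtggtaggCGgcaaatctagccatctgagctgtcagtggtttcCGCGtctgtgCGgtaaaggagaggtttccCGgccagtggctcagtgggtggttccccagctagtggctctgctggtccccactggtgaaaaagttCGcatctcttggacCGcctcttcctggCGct
Tbk1: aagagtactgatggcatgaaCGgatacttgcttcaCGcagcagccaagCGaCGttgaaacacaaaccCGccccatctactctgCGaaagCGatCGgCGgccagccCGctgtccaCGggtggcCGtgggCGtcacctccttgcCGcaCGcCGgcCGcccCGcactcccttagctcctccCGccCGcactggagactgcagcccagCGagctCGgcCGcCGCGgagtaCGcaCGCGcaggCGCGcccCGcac

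The Mb21d1 window holds 9 CpG and the Tbk1 window 31, against a median of 6 over 32544 RefSeq windows of this length, which puts them at the 61.9 and 95.4 percentile. The other windows hold 26 CpG (Samhd1), 18 (Ddx41), 17 (Enpp1), 16 (Irf3) and 4 (Ikbke). Searched on both strands, GGGCGG (the core of a GC box, in 33% of all windows) occurs 3 times before Tbk1 and once each before Irf3, Enpp1 and Samhd1. TTC and GAA with any 3 bases between them, a GAS-type site, is in 7.04% of all windows. Among the 7 genes it was found only before Samhd1, at position -235. A pair of GAAA half-sites with 2 bases between them, the core of an interferon-stimulated response element, is in 2.98% of all windows, CCAAT in 33.8% and TATAAA in 12.3%, and none of these was found before the 7 genes. That says only that these letters are not in these windows, and DNA methylation was not measured here.

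The sensor Mb21d1 was low in the IDH1 mutant lines and set the lines apart more than any other of the 8 genes. The gene (ENSMUSG00000032344) spans chromosome 9 from 78430526 to 78443237, minus strand, in GRCm38, the build of all coordinates given. Among the IDH1 mutant lines, its 3 libraries had 0.395, 0.573 and 0.538 FPKM in PIC144-1, 2.75, 2.15 and 2.74 FPKM in PIC144-3, 0.957, 1.22 and 1.04 FPKM in PIC496-3, and 0.132, 0.266 and 0.289 FPKM in PIC496-4. Among the IDH1 WT lines they had 3.63, 4.21 and 3.90 FPKM in PC134-0, 2.89, 3.17 and 3.13 FPKM in PC308-1, and 3.16, 3.20 and 3.36 FPKM in PC326-1. Every IDH1 mutant library was below every IDH1 WT library, with 3 mutant lines far below and PIC144-3 close to the WT range. The highest line had 17.1 times the level of the lowest, on 825 fragments in PC134-0 and 51 in PIC496-4, whose 95% counting interval was 0.173 to 0.306 FPKM. Ordered by level, each line's libraries stood clear of the next line's except for PC326-1 and PC308-1, whose libraries overlapped.

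Over line means, Mb21d1 averaged 1.09 ± 1.03 FPKM (SD, n = 4) in mutant lines and 3.40 ± 0.447 FPKM (SD, n = 3) in WT lines, a ratio of 0.319. The difference on the log2(FPKM + 0.5) scale was -1.51 (SE 0.458, limma p = 0.0115 before and 0.301 after adjustment over 13379 genes), and the exact two-sided permutation test gave p = 0.0571, where the smallest p that 35 splits of the lines allow is 0.0286. Mb21d1 did not pass at an adjusted p of 0.05. In these bulk libraries, fewer cells with the transcript and less transcript per cell cannot be told apart. The size depends on how low counts are treated: with limma voom on the recovered fragments the difference was -2.15. When the 21 libraries were fitted with the line as a random effect, the difference was -1.51 with a limma adjusted p of 0.00867, and 552 genes passed in place of 16. That fit applied a within-line correlation shared by all genes, while Mb21d1 had an SD of 1.03 between line means and 0.124 within lines. It can therefore understate the spread among lines for this gene, and the fit over line means is the one relied on.

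**Figure D1:**
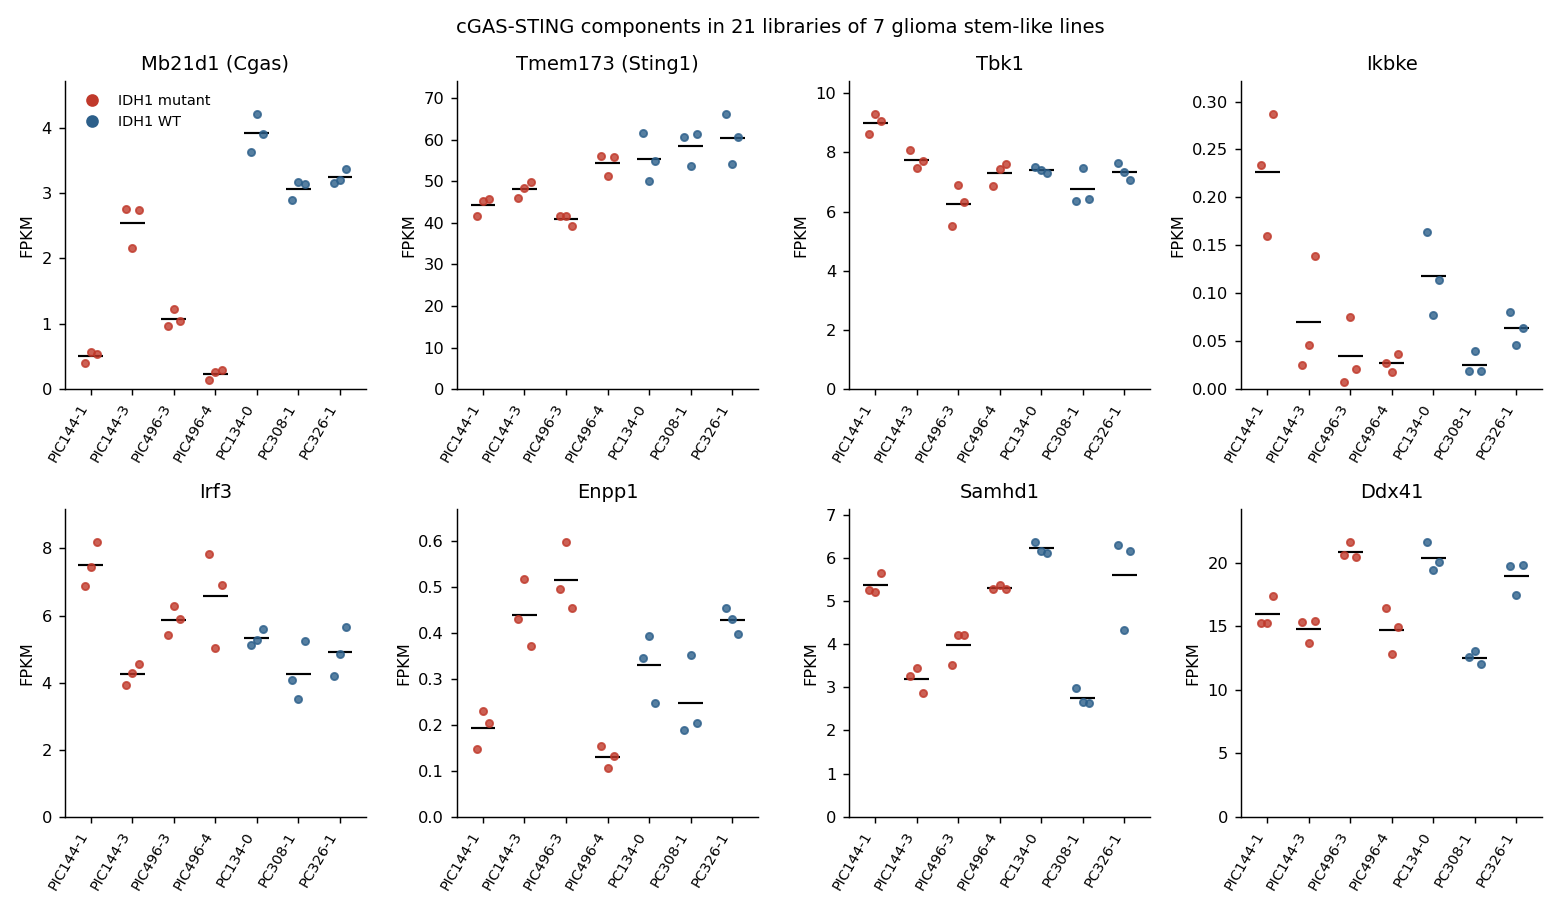
FPKM of the 8 genes in each of the 21 libraries (points, 3 per line), with the mean of each line as a bar. IDH1 mutant lines are on the left in red and IDH1 WT lines on the right in blue, and each y axis starts at 0 with its own scale. Mb21d1 runs between 0.229 FPKM in PIC496-4 and 3.91 FPKM in PC134-0, while Tbk1 stays between 6.24 and 8.99 FPKM.

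The adaptor Tmem173 was the most abundant of the 8 genes in every line, and its line means lay slightly lower in the IDH1 mutant lines. The gene (ENSMUSG00000024349) spans chromosome 18 from 35733678 to 35740554, minus strand. Its libraries had 41.6, 45.4 and 45.7 FPKM in PIC144-1, 46.1, 48.4 and 49.9 FPKM in PIC144-3, 41.6, 41.6 and 39.2 FPKM in PIC496-3, and 56.02, 51.3 and 55.8 FPKM in PIC496-4. In the IDH1 WT lines they had 61.6, 50.1 and 54.8 FPKM in PC134-0, 60.8, 53.7 and 61.3 FPKM in PC308-1, and 66.2, 54.1 and 60.7 FPKM in PC326-1. The libraries of PIC496-4 lay among those of the WT lines, and the other 9 mutant libraries lay below all WT libraries. The means were 46.9 ± 5.82 FPKM (SD, n = 4) in mutant lines and 58.2 ± 2.46 FPKM (SD, n = 3) in WT lines. The log2 difference was -0.31 (95% interval -0.63 to 0.00187, limma adjusted p = 0.392, exact permutation p = 0.0571).

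The line means of Tmem173 did not overlap between the genotypes only because PIC496-4, at 54.4 FPKM, lay just under PC134-0, at 55.5 FPKM. Without replicate 2 of PIC496-4, a setting chosen after seeing the data, PIC496-4 had 55.9 FPKM, the groups overlapped and the exact permutation p was 0.0857. The p was also 0.0857 when replicate 1 of every line was left out. Mb21d1 and Tmem173 were the 2 of 8 genes whose line means did not overlap, both lower in the IDH1 mutant lines. Of all tested genes, 13.3% did not overlap in either direction and 6.43% lay lower in every IDH1 mutant line. At a limma adjusted p under 0.05, 0 of the 6 tested genes of the set and 0.12% of all tested genes (16 of 13379, 3 higher and 13 lower) passed. At an unadjusted p under 0.05 it was 1 of the 6, Mb21d1, and 12.8% of all tested genes. Tmem173 lay near this limit, with an unadjusted limma p of 0.0511. Over the alternative settings this p ran between 0.0198 without PIC496-4 and 0.141 without PC326-1. The lowest limma adjusted p of Tmem173 among them was 0.295. Ikbke and Enpp1 had too low a level to enter this test, which needed 0.5 FPKM in 3 lines.

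The transcripts of the adaptor and the sensor stood at very unequal levels. Tmem173 had 88.1, 18.9, 38.1 and 237 times the FPKM of Mb21d1 in PIC144-1, PIC144-3, PIC496-3 and PIC496-4, and 14.2, 19.1 and 18.6 times in PC134-0, PC308-1 and PC326-1. PIC144-3 had the ratio of the WT lines, and the other mutant lines had higher ones. Mb21d1 itself had 1.75 to 5.79 times the FPKM of Enpp1 in IDH1 mutant lines and 7.56 to 12.3 times in IDH1 WT lines, so that this ratio of sensor to cGAMP hydrolase did not overlap between the genotypes. It is built on the same low Mb21d1 values.

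Of the kinases, Tbk1 was nearly level over the lines and Ikbke was close to silent. Tbk1 (chromosome 10 from 121546455 to 121586787, ENSMUSG00000020115) had line means of 8.99, 7.75, 6.24 and 7.31 FPKM in PIC144-1, PIC144-3, PIC496-3 and PIC496-4, and of 7.40, 6.75 and 7.35 FPKM in PC134-0, PC308-1 and PC326-1. Only PIC144-1, the highest line, had libraries that stood clear of the next line. The means were 7.57 ± 1.14 FPKM (SD, n = 4) in mutant lines and 7.17 ± 0.361 FPKM (SD, n = 3) in WT lines, with a log2 difference of 0.06 (95% interval -0.29 to 0.42, exact permutation p = 0.686). Ikbke (chromosome 1 from 131254343 to 131279606, ENSMUSG00000042349) had 0.227, 0.0702, 0.0343 and 0.0271 FPKM in the 4 mutant lines in that order and 0.118, 0.0256 and 0.0634 FPKM in PC134-0, PC308-1 and PC326-1. These rest on 12 to 102 fragments per line. The 95% counting interval of PIC144-1, 0.184 to 0.274 FPKM, lay above those of all other lines. Its libraries, at 0.160 to 0.287 FPKM, still overlapped those of PC134-0, at 0.0770 to 0.164 FPKM. The genotypes overlapped (exact permutation p = 0.8). Tbk1 had 39.6 to 270.05 times the FPKM of Ikbke in mutant lines and 62.5 to 264 times in WT lines.

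Irf3, the transcription factor that TBK1 phosphorylates, ran opposite to Mb21d1 over part of the lines. The gene (ENSMUSG00000003184) spans chromosome 7 from 44997648 to 45002848, plus strand. Its libraries had 6.88, 7.46 and 8.20 FPKM in PIC144-1, 3.94, 4.30 and 4.55 FPKM in PIC144-3, 5.41, 6.28 and 5.90 FPKM in PIC496-3, and 7.83, 5.02 and 6.90 FPKM in PIC496-4. In the IDH1 WT lines they had 5.12, 5.28 and 5.60 FPKM in PC134-0, 4.06, 3.50 and 5.24 FPKM in PC308-1, and 4.19, 4.85 and 5.66 FPKM in PC326-1. PIC144-1 was highest and PIC144-3, of the same number, lowest, beside PC308-1. The means were 6.06 ± 1.37 FPKM (SD, n = 4) in mutant lines and 4.83 ± 0.536 FPKM (SD, n = 3) in WT lines, a log2 difference of 0.28 (95% interval -0.19 to 0.74, exact permutation p = 0.257). Irf3 overlaps Bcl2l12, a gene on the opposite strand, by 1065 bases, and whether the counting used strand is not given in the sources used here. Bcl2l12 was at 2.83 FPKM in PC308-1 to 7.54 FPKM in PIC144-1, with a correlation of 0.66 with Irf3 over the 7 lines, so reads shared by the pair are possible and were not tested.

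Samhd1 and Ddx41 varied among lines of the same genotype, and the genotypes overlapped for both. Samhd1 (chromosome 2 from 157097533 to 157135265, ENSMUSG00000027639) had line means of 5.37, 3.19, 3.98 and 5.31 FPKM in PIC144-1, PIC144-3, PIC496-3 and PIC496-4, and of 6.22, 2.76 and 5.60 FPKM in PC134-0, PC308-1 and PC326-1. The WT lines held both the highest and the lowest value. The means were 4.46 ± 1.06 FPKM (SD, n = 4) in mutant lines and 4.86 ± 1.84 FPKM (SD, n = 3) in WT lines, with a log2 difference of -0.07 (95% interval -0.76 to 0.62). Ddx41 (chromosome 13 from 55530410 to 55536658, ENSMUSG00000021494) had 15.999, 14.8, 20.9 and 14.7 FPKM in the mutant lines and 20.4, 12.5 and 19.01 FPKM in the WT lines, in the same order, and its log2 difference was -0.04 (95% interval -0.53 to 0.44). Libraries of PIC496-3, PC134-0 and PC326-1 lay above those of the other 4 lines, in PC326-1 only just, at 17.45 FPKM against 17.43 FPKM in PIC144-1. The exact permutation p was 0.8 for Samhd1 and 0.8286 for Ddx41, and the intervals leave room for a difference in either direction.

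Enpp1 (chromosome 10 from 24637914 to 24712159, ENSMUSG00000037370) was low in all lines and varied within the mutant group. It had 0.194, 0.440, 0.516 and 0.131 FPKM in PIC144-1, PIC144-3, PIC496-3 and PIC496-4, and 0.329, 0.248 and 0.428 FPKM in PC134-0, PC308-1 and PC326-1, from 71 to 274 fragments per line. The means were 0.320 ± 0.187 FPKM (SD, n = 4) in mutant lines and 0.335 ± 0.0901 FPKM (SD, n = 3) in WT lines, with an exact permutation p of 0.857. Neighbouring lines in the order of levels had overlapping libraries, except PC326-1 and PC134-0.

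Each of the 6 tested genes differed between the 7 lines in a limma F test over the 21 libraries, and 89.6% of all tested genes did so, so this is no mark of the set. Libraries are replicates of the line only in this test, and they may differ for technical reasons alone. The adjusted p was 1.29e-13 for Mb21d1, 9.65e-08 for Samhd1, 6.54e-07 for Ddx41, 1.36e-05 for Tmem173, 0.000241 for Tbk1 and 0.000359 for Irf3. The SD of the 7 line means on the log2 scale was 1.03 for Mb21d1, at the 94.98 percentile of all tested genes, 0.40 for Samhd1 (65.0 percentile), 0.28 for Irf3 (43.4), 0.27 for Ddx41 (39.9), 0.21 for Tmem173 (24.3) and 0.15 for Tbk1 (9.75). Mb21d1 and Samhd1 thus varied more than most genes, while the other 4 tested genes of the set varied less than most.

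**Figure D2:**
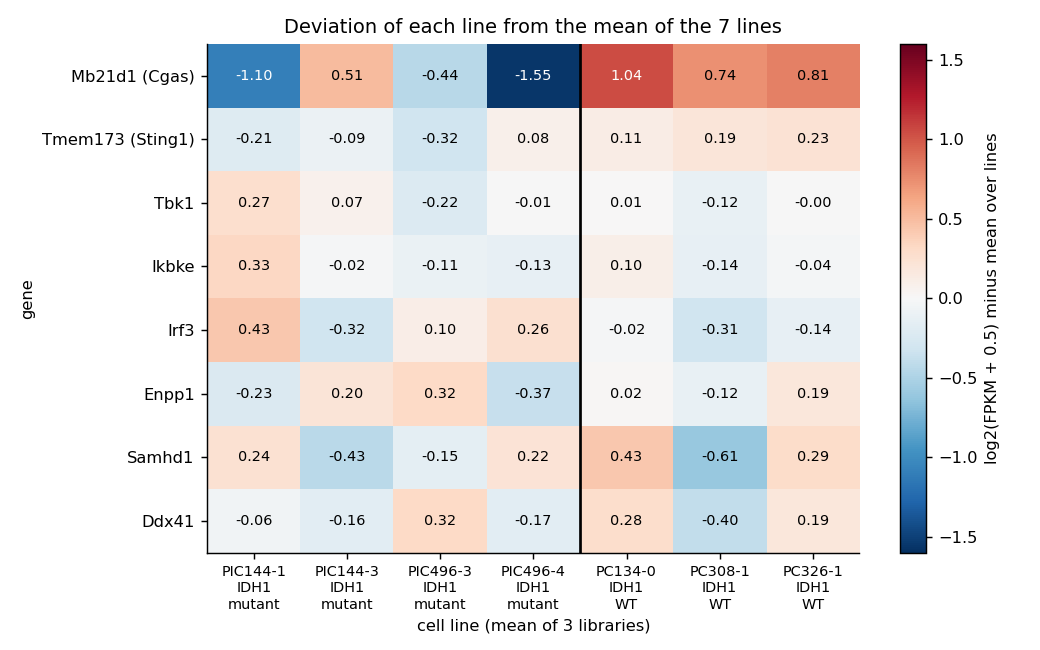
Line means of the 8 genes on the log2(FPKM + 0.5) scale, each minus that gene's mean over the 7 lines, in color and as printed values, with IDH1 mutant lines left of the black line and IDH1 WT lines right of it. Mb21d1 lies at -1.10 in PIC144-1 and -1.55 in PIC496-4 and at 0.51 in PIC144-3, and the other rows are paler, with Samhd1 at -0.61 in PC308-1.

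Lines that share a number were compared within the IDH1 mutant group. PIC144-3 had a higher level of Mb21d1 than PIC144-1, by 1.60 on the log2 scale (SE 0.108, limma adjusted p = 4.66e-10), and lower levels of Irf3 (-0.75, adjusted p = 0.000166), Samhd1 (-0.67, adjusted p = 2.53e-05) and Tbk1 (-0.20, adjusted p = 0.0259). Tmem173 (0.12) and Ddx41 (-0.11) did not pass, with limma adjusted p of 0.200 and 0.271, so that 4 of 6 genes passed beside 58.2% of all tested genes. PIC496-4 had a lower level of Mb21d1 than PIC496-3, by -1.11 (SE 0.108, limma adjusted p = 7.42e-08), and of Ddx41 (-0.50, adjusted p = 4.80e-05). It had higher levels of Tmem173 (0.41, adjusted p = 0.000287), Samhd1 (0.38, adjusted p = 0.00536) and Tbk1 (0.22, adjusted p = 0.0211). Irf3 (0.14, limma adjusted p = 0.447) did not pass, so that 5 of 6 genes passed beside 51.5% of all tested genes. Without replicate 2 of PIC496-4 the Irf3 difference was 0.31 (limma adjusted p = 0.0627). In both pairs the line with less Mb21d1 had more Samhd1 and more Tbk1. Over all 7 lines Mb21d1 had a Pearson r of -0.24 with Tbk1 and -0.21 with Samhd1, and a Spearman rho of 0.04 and 0.32. Among libraries within lines r was 0.62 with Tbk1 and -0.03 with Samhd1. The Tbk1 call of the PIC496 pair ended without replicate 2 of PIC496-4, chosen after seeing the data (limma adjusted p = 0.0541), without replicate 1 (0.133), without replicate 3 (0.188) and on the TPM scale (0.0720). That of the PIC144 pair ended without replicate 2 (0.116) and without replicate 3 (0.182), and the Samhd1 call of the PIC496 pair without replicate 1 (0.104). On the TPM scale Ddx41 of the PIC144 pair passed (-0.21, limma adjusted p = 0.0485).

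Over the 7 lines the 8 genes did not vary as a block. Correlations of the line means are given as a description, without p-values, since 7 lines of which 2 pairs share a number are few and their libraries share depth and composition. Mb21d1 had a Pearson r of 0.49 and a Spearman rho of 0.64 with Tmem173, and r was 0.90 without PIC144-1 and PIC496-4, the lines farthest from the median of Mb21d1. In these 2 lines Mb21d1 was lowest, and PIC496-4 combined the lowest Mb21d1 with the highest Tmem173 of the mutant lines. With Irf3, Mb21d1 had r = -0.83 and rho = -0.61, and r was -0.49 without the same 2 lines. With Enpp1 r turned round, with 0.56 over all lines and -0.69 without them, and it was -0.24 and 0.72 for Tbk1. The relations with Tbk1 and Enpp1 thus rest on PIC144-1 and PIC496-4. Tbk1 and Ikbke had r = 0.85 and rho = 0.86, and r = 0.55 without PIC144-1 and PIC496-3.

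**Figure D3:**
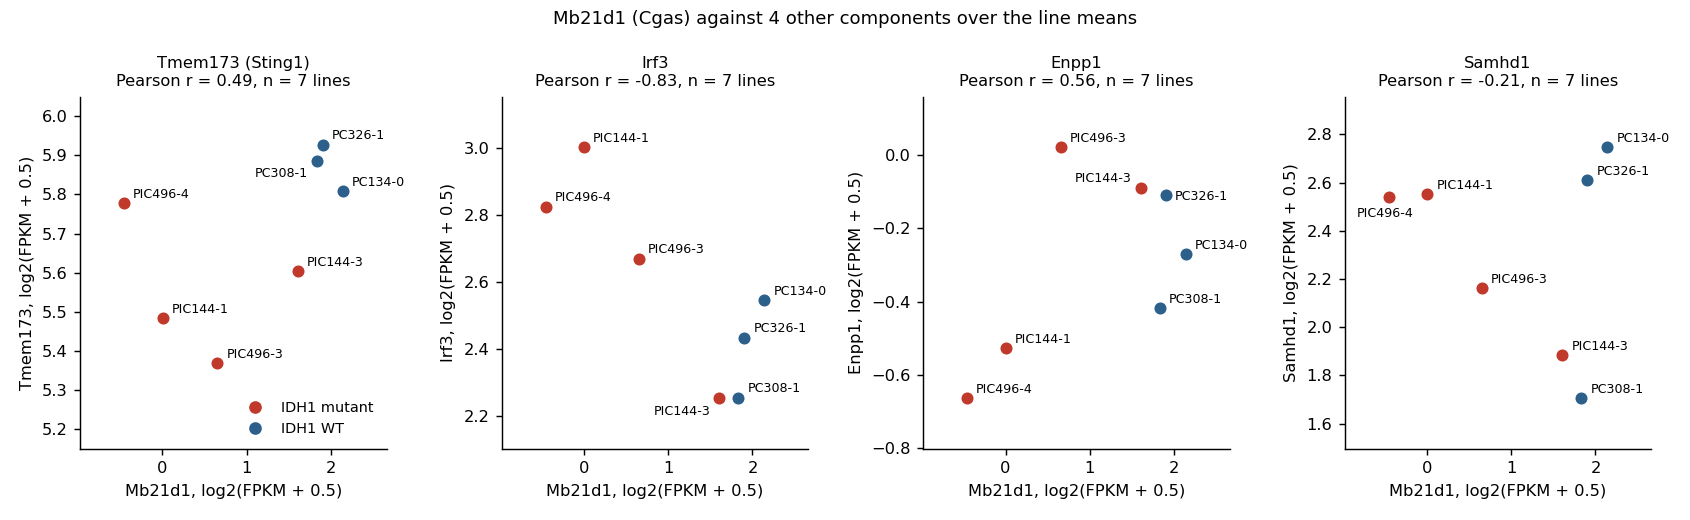
Line means of Tmem173, Irf3, Enpp1 and Samhd1 (y axes) against Mb21d1 (x axes), all as log2(FPKM + 0.5), with IDH1 mutant lines in red and IDH1 WT lines in blue and the y axes not starting at 0. PIC496-4 and PIC144-1, with the least Mb21d1, stand at the left of each panel, low for Enpp1 and high for Irf3, and PIC496-4 lies above the other mutant lines for Tmem173.

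A correlation of this size with Mb21d1 is common among genes in these lines: 17.0% of all tested genes had r of 0.8 or more in either sign with Mb21d1, against 1.48% with Tmem173 and 3.92% with Tbk1. Predicted genes and clone names aside, the genes whose line means were most like Mb21d1 were Plpp5 (r = 0.99), a lipid phosphate phosphatase, Lgalsl (0.99), Smap1 (0.99), Abhd4 (0.99) and the septin Sept8 (0.98), and 6 tested genes, those set aside included, reached the last of these. Plpp5 had 5.83, 9.12, 7.59 and 5.48 FPKM in PIC144-1, PIC144-3, PIC496-3 and PIC496-4, against 11.3, 9.97 and 9.97 FPKM in the WT lines PC134-0, PC308-1 and PC326-1. Like Mb21d1 it was lowest in PIC496-4 and PIC144-1 and highest in PC134-0. Most like Tmem173 were Ptar1 (r = 0.98), the retromer subunit Vps26a (0.97), Ccdc125 (0.97), the translation factor Eif4a2 (0.95) and the rhomboid protease Rhbdd1 (0.94).

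The surrounding chromosome was set beside each gene as the median deviation of the tested genes that start within 5 Mb. For Mb21d1 the median of the 36 neighbours lay between -0.08 and 0.12 in every line, while the gene itself ran between -1.55 in PIC496-4 and 1.04 in PC134-0. The change of Mb21d1 over lines was not shared by this median. Single neighbours spread more widely, with quartiles of -0.30 and 0.27 in PIC496-4, and were not compared with Mb21d1 one by one. For Samhd1 the 99 neighbours lay at 0.31 in PC134-0 and 0.26 in PC326-1, beside 0.43 and 0.29 for the gene. In PIC144-3 and PC308-1, where Samhd1 was lowest at -0.43 and -0.61, they lay at -0.13 and -0.08. For Ddx41 the 72 neighbours lay at 0.41 in PC134-0, 0.33 in PC326-1 and -0.31 in PC308-1, beside 0.28, 0.19 and -0.40 for the gene. In PIC496-3 they lay at -0.10 and Ddx41 at 0.32. In PC134-0 and PC326-1 the levels of Ddx41 and Samhd1 thus moved with those of their chromosome region, and the part of the region in the result was not tested. In PIC144-1 and PIC496-4 the neighbours of Samhd1 lay at -0.17 and -0.07 while the gene lay at 0.24 and 0.22. The 118 neighbours of Tmem173 lay at -0.30 in PIC144-1, beside -0.21 for the gene, and between -0.00907 and 0.11 in the other lines.

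**Figure D4:**
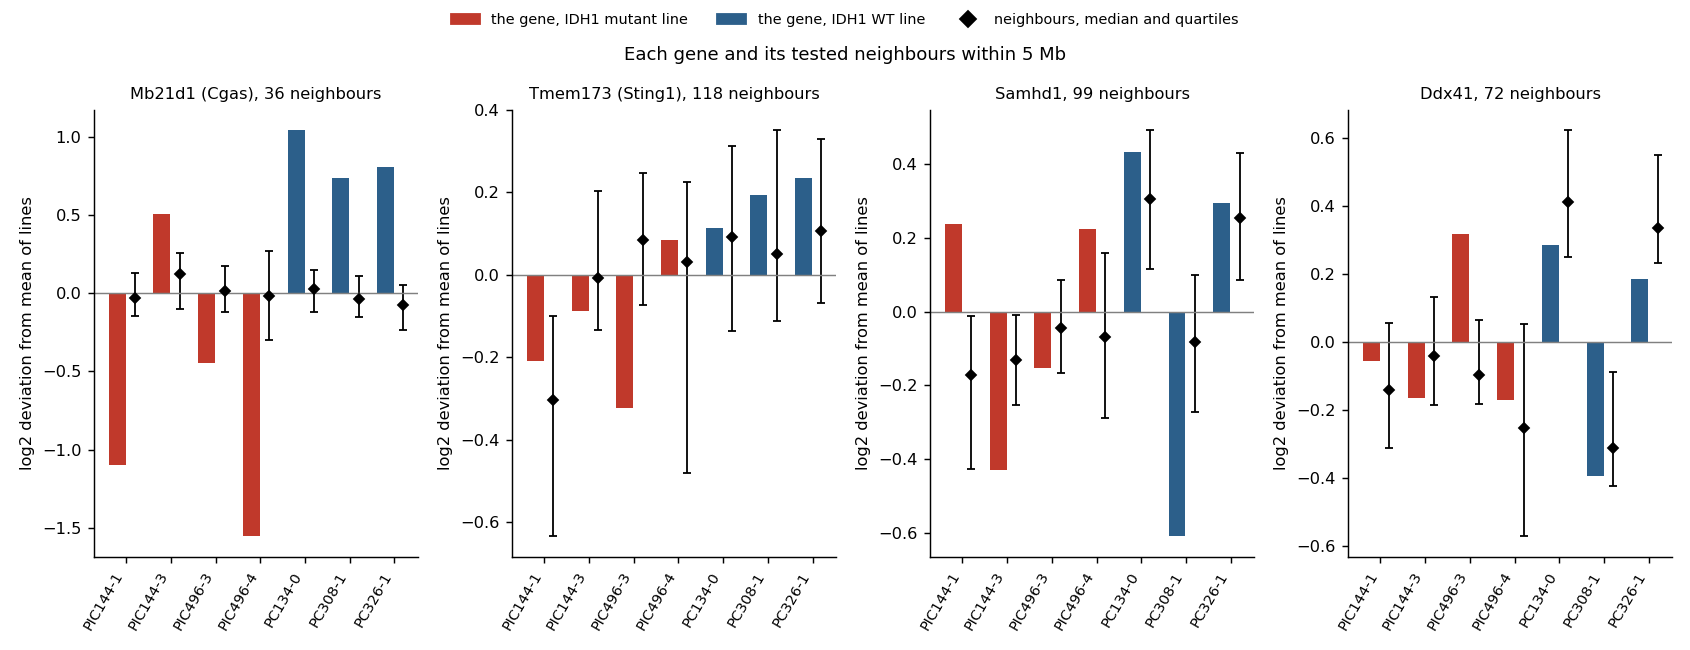
Deviation of 4 genes (bars, red for IDH1 mutant and blue for IDH1 WT lines) from their mean over the 7 lines on the log2(FPKM + 0.5) scale, beside the median (diamond) and quartiles (whiskers) of the tested genes within 5 Mb. The medians for the neighbours of Mb21d1 stay between -0.08 and 0.12, while those for Ddx41 reach 0.41 in PC134-0, where the gene is at 0.28.

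Other parts of the pathway were taken from a list of 57 genes, of which 50 were tested. Over line means none passed the limma test, 7 had an unadjusted p under 0.05, beside 12.8% of all tested genes, and 7 did not overlap between the genotypes, beside 13.3%. Both counts are near the share over all genes. There were 31 positive and 19 negative differences with a median of 0.09, beside 6796 and 6583 with a median of 0.00717 over all tested genes. With the line as a random effect over the 21 libraries, 1 of the 50 passed, a sensor cofactor, beside 4.13% of all tested genes. That fit can understate the spread among lines. The genes named next are ordered by p over line means. The 3 genes with the smallest p were a pair of sensor cofactors and a kinase adaptor. Zcchc3, which helps cGAS bind DNA, was at 0.652 ± 0.702 FPKM (SD, n = 4) in mutant lines and 6.502 ± 0.517 FPKM (SD, n = 3) in WT lines, a log2 difference of -2.80 (limma adjusted p = 0.111). G3bp1, a stress granule protein that primes cGAS for activation, was at 61.5 ± 13.4 FPKM in mutant lines and 43.1 ± 3.54 FPKM in WT lines (0.49, limma adjusted p = 0.369). Tank, an adaptor of TBK1 and IKKε, was at 3.71 ± 0.446 FPKM in mutant lines and 2.25 ± 0.986 FPKM in WT lines (0.66, limma adjusted p = 0.361).

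Banf1, a chromatin protein that keeps cGAS off DNA in the nucleus, was the most abundant of the list, at 176 ± 34.8 FPKM (SD, n = 4) in mutant lines and 164 ± 36.04 FPKM (SD, n = 3) in WT lines. The DNA exonuclease Trex1 and the transporter Slc46a2 were listed at 0 in every line. By role, differences were positive for 8 of 8 tested other DNA sensors, 7 of 9 genes of the NF-kB arm and 3 of 4 cGAMP transporters, and negative for 4 of 5 genes of STING trafficking and 4 of 5 of STING turnover. On the TPM scale it was 7 of 8 DNA sensors, and with quantile normalization 4 of 4 transporters. Other roles were near even. Positive and negative differences numbered 2 and 2 for sensor cofactors and for other interferon regulatory factors and STATs. They numbered 3 and 2 for kinase adaptors and for nucleases. Over all tested genes 6796 of 13379 were positive, and none of the genes counted by role passed over line means. Outside the naming rule, and chosen after the values were seen, Aim2, a DNA sensor of the inflammasome, was at 4.59 FPKM in PIC144-1 and at most 0.0176 FPKM in the other 6 lines, and Sec24c, a coat protein that carries STING out of the endoplasmic reticulum, was at 103 FPKM in PIC144-3 and between 28.01 and 40.1 FPKM in the others.

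The tested transcripts that IRF3 induces had lower means in the mutant lines, but none passed the test. The list held 5 interferon genes, of which Ifnb1 was detected in PC134-0 alone, at 0.0263 FPKM, and the other 4 were listed at 0, and 10 induced transcripts, of which 7 were tested. Of these 7 all had negative differences with a median of -1.98, 6 had an unadjusted limma p under 0.05 (12.8% of all tested genes), and none passed after adjustment over all genes. The filter had a part in these signs. Oasl1 reached 0.5 FPKM in the 3 WT lines alone, so its direction was fixed in advance. Of the transcripts left out, Isg20 had the higher mean in mutant lines, at 0.360 FPKM against 0.244 FPKM. Ifit3 (0.146 against 0.993 FPKM) and Usp18 (0.158 against 1.26 FPKM) had the lower one. With the line as a random effect over the 21 libraries, 4 of the 7 passed, beside 4.13% of all tested genes, in a fit that can understate the spread among lines. Ifit2, an antiviral RNA-binding protein, was at 0.571, 0.984, 0.967 and 0.0536 FPKM in PIC144-1, PIC144-3, PIC496-3 and PIC496-4 and, among WT lines, at 6.99 FPKM in PC134-0, 2.64 FPKM in PC308-1 and 4.46 FPKM in PC326-1 (log2 difference -2.20, limma adjusted p = 0.185). The antiviral enzyme Rsad2 had a difference of -1.98 (limma adjusted p = 0.201) and the ubiquitin-like modifier Isg15 one of -2.002 (limma adjusted p = 0.313). Cxcl10, a chemokine for T cells and the most abundant of the list, was at 1.09, 4.11, 0.412 and 0.213 FPKM in the 4 mutant lines, against 15.05, 2.65 and 4.64 FPKM in the 3 WT lines, so that PIC144-3 lay above PC308-1 and the groups overlapped. Chosen after the values were seen, the chemokine Ccl5 had 3.15, 1.70, 0.0218 and 0.0188 FPKM in the mutant lines, against 3.93, 0.494 and 0.866 FPKM in the WT lines, so that the PIC144 lines lay above PC308-1 and PC326-1 (log2 difference -0.58, limma adjusted p = 0.778). Isg20, an RNA exonuclease that was not tested, was highest of all lines in PIC144-1, at 1.04 FPKM.

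The order of the lines in most of these transcripts was close to that in Mb21d1. Of the 10 induced transcripts, all of which reached 0.5 FPKM in a line, 9 were highest in PC134-0 and 8 lowest in PIC496-4, and 8 had PIC144-3 as their highest mutant line. How many of all tested genes have these orders was not counted, so the counts are no mark of the list. Some levels in PIC496-4 were near 0, such as Ifit1 at 0.0220 FPKM. Their Pearson r with Mb21d1 over the 7 lines had a median of 0.78 and ran between -0.11 for Isg20 and 0.93 for Isg15, beside the 17.0% of all genes at 0.8 or more in either sign. The Spearman rho was 1 for Ifit2 and Rsad2. These are descriptions over 7 lines, and the list was chosen with their levels known. PC134-0, the line with the highest Cd68 and P2ry12, also had the highest level of 9 of these transcripts, and the part of other cells in that was not tested, while Tyrobp was at 0 and Ptprc at 0.00395 FPKM there.

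**Figure D5:**
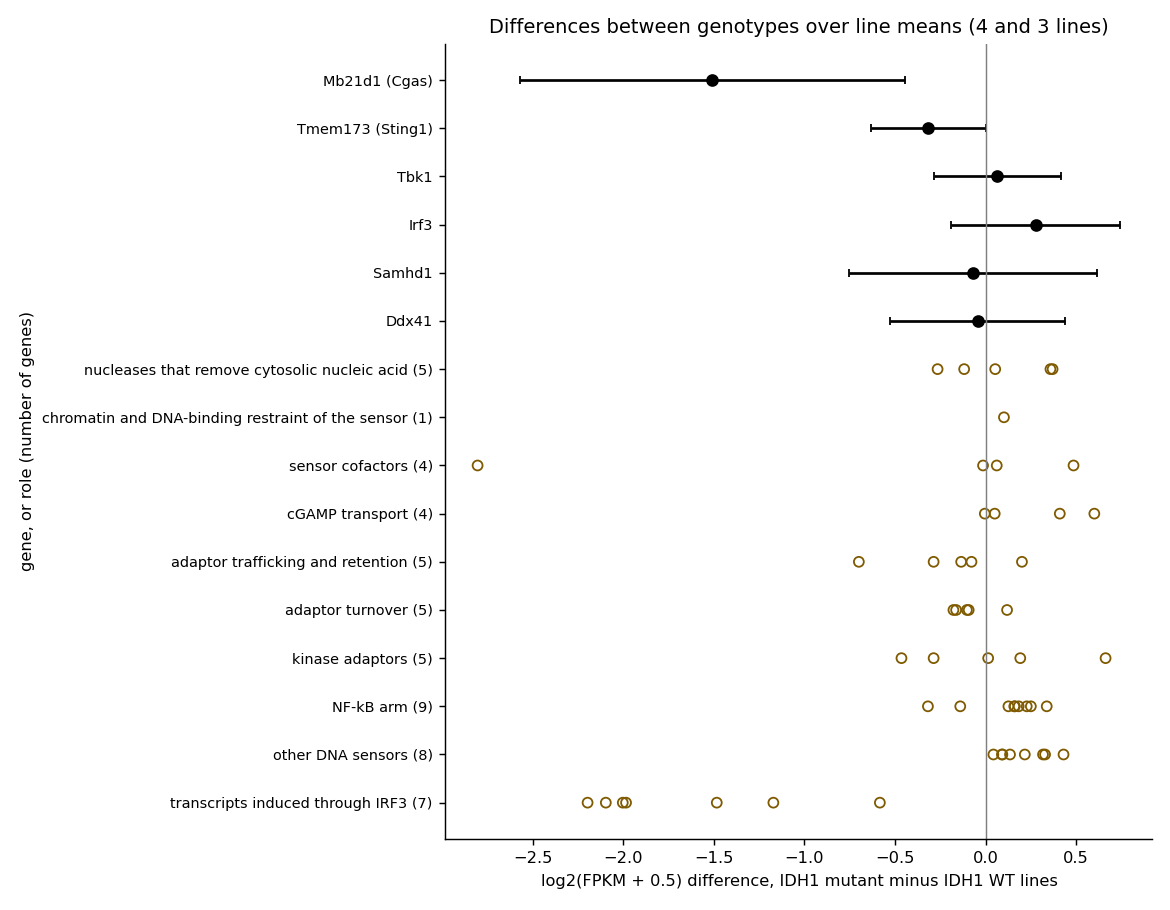
Differences of line means on the log2(FPKM + 0.5) scale, IDH1 mutant minus IDH1 WT, for the 6 tested genes of the set (filled points with 95% limma intervals) and for the tested genes of most other pathway roles (open circles, number of genes in brackets). Mb21d1 lies at -1.51 and Tmem173 at -0.31, with an interval that ends at 0.00187, and the 7 transcripts induced through IRF3 all lie below 0. Among these, Oasl1 passed the filter through the WT lines alone.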

How the data were processed

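mRNA was sequenced in 21 libraries of 7 lines. The labels' protocols give capture of polyA RNA and paired reads of strand-specific libraries. The submitters' processing notes name HISAT2 and mm39. The read counter was not given in the sources used here, nor were the annotation and whether strand was used. The authors deposited FPKM only. The file's coordinates match GRCm38, where 53548 of 54532 gene IDs had the same position in the GENCODE annotation.

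FPKM times gene length gave whole fragments for 100% of values under 1000 fragments, within 0.05, and 15011668 to 21966351 fragments per library. Counting intervals are exact Poisson ones at 95% and cover counting error only. Line means were tested as log2(FPKM + 0.5) with limma 3.58.1 (trend, robust) in R 4.3.3, for 13379 genes with 0.5 FPKM or more in 3 lines, with Benjamini-Hochberg adjustment over all of them, and single genes by exact two-sided permutation over 35 splits with scipy 1.17.1. These p-values rest on the spread among lines, not among libraries. The alternative with the line as a random effect used a within-line correlation shared by all genes, so its p-values rest in part on the spread among libraries. Differences between lines were tested over the 21 libraries. The 8 genes, the gene lists, the naming rule and the tests were chosen with earlier results of these data known. Named from each list were the 3 genes with the smallest p, the highest and the lowest, and for Mb21d1 and Tmem173 the 5 genes with the highest Pearson r, predicted genes and clone names left out. Alternatives were other pseudocounts, filters, scalings, fits and left-out lines or replicates. Leaving out 1 library of PIC496-4 was added after seeing the data. Replicate numbers did not pair the libraries.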

Additional observations from a re-analysis of the deposited data

How the results depend on the processing

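The count of 16 genes past the threshold between the genotypes was 3 with no filter, 8 with the stricter filter (2 FPKM), 4 with lines sharing a number averaged, and 0 with limma voom on the recovered fragments (1643 at an unadjusted p under 0.05). Leaving out 1 line gave 0 to 29 genes, with 0 without PC134-0 and without PC326-1 (693 and 923 at an unadjusted p under 0.05) and 29 without PC308-1, and fewer lines also weaken the test. With the 21 libraries fitted and the line as a random effect, 552 genes passed, and 440 with the replicate block added. Mb21d1 then passed as well, at -1.51 with a limma adjusted p of 0.00867, and 0.0130 with the replicate block. These fits share a within-line correlation over all genes and can understate the spread among lines of Mb21d1. The correlation of same-numbered libraries had a median of 0.0149, so the numbers were not taken as pairs. Over all 23 alternatives Mb21d1 ran between -2.15 and -1.19 and Tmem173 between -0.39 and -0.25, both always lower in the IDH1 mutant lines, and Irf3 between 0.17 and 0.42.

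The differences near 0 changed sign when a line or a replicate was left out, and the cause was not tested. Tbk1 ran between -0.0167 and 0.15, with its sign turned without PIC144-1. Samhd1 ran between -0.39 and 0.13, positive without PIC144-3, PC134-0 or PC326-1 and at 0.00108 without replicate 1. Ddx41 ran between -0.25 and 0.0869, positive without PIC144-3, PIC496-4, PC134-0 or PC326-1. Over the left-out lines and replicates, in part of which the direction turned, the exact permutation p ran between 0.3 and 0.9 for Tbk1, 0.6 and 1 for Ikbke, 0.5 and 0.9 for Enpp1, 0.133 and 1 for Samhd1, and 0.4 and 1 for Ddx41. The exact p of Mb21d1 was 0.0571 on the TPM and median-of-ratios scales and with both other pseudocounts. Irf3 in PIC496-4 minus PIC496-3 ran between -0.0432 without replicate 1 and 0.353. Depth limits Ikbke, with 12 to 102 fragments per line, Enpp1, with 71 to 274, and Mb21d1 in PIC496-4 and PIC144-1, with 51 and 104. With no filter all 8 genes differed between lines in the limma F test, beside 14873 of the 30221 genes then tested.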
